A study of Mus musculus with 15 samples.

Results

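The cadherin superfamily genes were taken from the authors' histone H3 tables by symbol: classical and other cadherins (Cdh), cadherin-related genes (Cdhr), protocadherins (Pcdh), the Celsr genes, Dachsous (Dchs) and Fat1 to Fat4. On every chromosome other than 1, the tables named 33 such genes among 6691 genes in all. These 33 genes held 138 of the 49347 rows outside chromosome 1 (88334 rows with it), of which 136 were positions of changed nucleosome occupancy and 2 were nucleosome shifts. Chromosome 1 was left out because nearly all of its positions pointed one way in 1 of the tables, as given in the closing section.

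The series examined chromatin of the nucleus accumbens, part of the brain's reward circuit, in C57BL/6 mice. Defeated mice met aggressive CD1 mice on 10 days of chronic social defeat stress, and a social interaction test 24 hours after the last defeat parted them into a susceptible and a resilient group, beside a control group that was not defeated. The tissue was bulk punches pooled from 10 mice per replicate and taken 48 hours after the last defeat. H3 was immunoprecipitated from chromatin cut with micrococcal nuclease, and ACF1, the accessory subunit of the nucleosome-spacing ACF complex, from sheared chromatin.

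For each pair of groups the authors listed positions of higher ("Up") or lower ("Down") H3 occupancy, and positions where a nucleosome had shifted. The pair was read from the names of the tables. Up is read here as more H3 in the group named first, an assumption that no file settles, and the opposite reading turns every direction given here. Each pair of groups had 1 deposited result, so no value had a spread between replicates and no comparison between groups could be tested. The tables gave no size, read count or p-value for an occupancy change, and depth was unknown. Any 2 of the 3 tables share a group, so their values are set side by side and are not independent. The tissue label could not be checked against marker genes because the files hold no expression values, and in bulk tissue a change within a cell type and a change in the share of that cell type cannot be told apart.

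Cadherins are membrane proteins whose extracellular repeats bind calcium and join neighbouring cells, and the classical members hold on to the actin skeleton through catenins inside the cell. In the brain, classical cadherins and protocadherins take part in sorting neurons, guiding axons and holding synapses, and the clustered protocadherins give single neurons different surface identities. Fat, Dachsous and Celsr proteins are giant cadherins that orient cells within a tissue.

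A position in a promoter class, which the tables assign within 3 kb of a gene start, was held by 9 members. For 4 of these 9 genes, the promoter in the RefSeq promoter table (build GRCm38.p6) is shown here. The 250 bases before the start are given in gene orientation, with CG dinucleotides in capitals. Promoters of the remaining genes are not shown, whether or not that table holds them. The H3 tables use the build mm9, so the windows are matched to members by symbol and not by coordinate. Cdh22, a type II classical cadherin, has its window at chr2:165234738-165234987 on the minus strand. The window of Cdhr1, a photoreceptor cadherin, lies at chr14:37098348-37098597 on the minus strand. That of Cdhr5, a cadherin of the intestinal brush border, lies at chr7:141276787-141277036 on the minus strand. The window of Pcdh15, a protocadherin of hair cell tip links, lies at chr10:73821617-73821866 on the plus strand.
Cdh22: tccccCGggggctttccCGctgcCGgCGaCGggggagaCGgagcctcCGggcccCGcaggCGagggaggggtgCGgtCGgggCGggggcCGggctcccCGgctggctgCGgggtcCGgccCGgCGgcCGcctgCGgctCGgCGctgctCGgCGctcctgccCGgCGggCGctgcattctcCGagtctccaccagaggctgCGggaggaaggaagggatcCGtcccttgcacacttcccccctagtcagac
Cdhr1: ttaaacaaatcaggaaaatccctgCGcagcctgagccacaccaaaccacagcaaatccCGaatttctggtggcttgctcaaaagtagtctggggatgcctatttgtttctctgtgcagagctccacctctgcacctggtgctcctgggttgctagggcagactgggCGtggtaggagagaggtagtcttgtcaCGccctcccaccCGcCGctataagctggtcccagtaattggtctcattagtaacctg
Cdhr5: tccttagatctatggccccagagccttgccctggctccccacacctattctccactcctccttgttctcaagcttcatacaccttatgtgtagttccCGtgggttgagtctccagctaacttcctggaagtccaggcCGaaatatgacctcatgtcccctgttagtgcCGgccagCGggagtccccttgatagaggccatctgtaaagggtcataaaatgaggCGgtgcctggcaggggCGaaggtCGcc
Pcdh15: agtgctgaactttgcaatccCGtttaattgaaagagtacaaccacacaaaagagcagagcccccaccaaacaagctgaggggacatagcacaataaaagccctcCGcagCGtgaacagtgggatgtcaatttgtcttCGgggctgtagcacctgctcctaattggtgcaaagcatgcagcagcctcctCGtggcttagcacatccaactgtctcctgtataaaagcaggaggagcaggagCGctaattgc

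The 4 windows differed in CG content. The Cdh22 window held 30 CG dinucleotides and was 77.6% G or C, the Cdhr5 window held 7 and was 55.6%, and the Cdhr1 and Pcdh15 windows held 6 each and were 53.2% and 50.4%. Over 32851 RefSeq promoters cut to the same 250 bases, the median was 6 CG dinucleotides and 52.4% G or C, so Cdh22 stood apart from the other 3 and from the median. On either strand, the GC box GGGCGG was found in the Cdh22 window and in 32.7% of all promoters, the TATA box TATAAA in the Pcdh15 window and in 12.4%, and the E-box CACGTG in none of the 4 and in 6.02%. In Pcdh15 the TATAAA motif began 33 bases before the start. None of the H3 positions of these genes lay inside the windows: they were at -2.13 kb from the start for Cdh22, 1.47 kb for Cdhr1, 0.883 kb for Cdhr5 and 1.10 kb for Pcdh15. The Cdhr5 position was Up and the other 3 Down, all in susceptible against control.

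The superfamily as a whole carried about the same mix of Up and Down as other genes. In susceptible against control, 18 members held 45 positions, 17 Up and 28 Down, or 37.8% Up (Wilson 95% interval 25.1% to 52.4%). Over all genes named outside chromosome 1, 53.9% held a position in that table, and 37.6% of 5567 positions were Up. The resilient against control table listed 50 positions at 17 members, 14 Up and 36 Down, or 28.0% Up (17.5% to 41.7%), where 53.3% of all genes held a position and 36.7% of 5451 positions were Up. In resilient against susceptible, 15 members held 41 positions, 20 Up and 21 Down, or 48.8% Up (34.3% to 63.5%), where 49.2% of all genes held a position and 49.8% of 4851 positions were Up. The interval for the members thus held the share over all genes in each of the 3 tables. It treats positions as independent and covers only their number, not differences between animals.

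**Figure D1:**
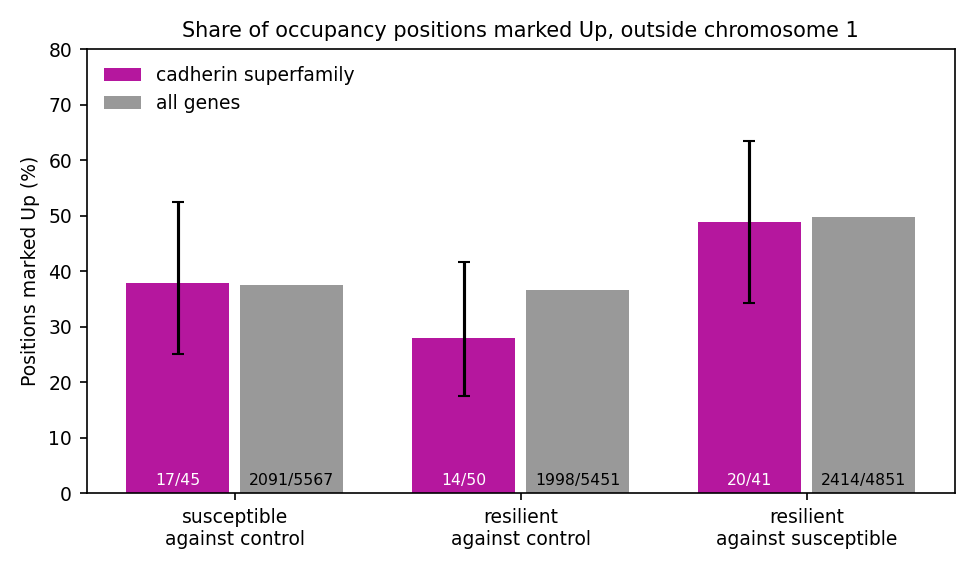
Share of occupancy positions marked Up (percent, vertical axis) in each comparison, for cadherin superfamily genes and for all genes named outside chromosome 1. Lines on the members' columns are Wilson 95% intervals over positions, and these intervals hold the share over all genes in each comparison.

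Positions at the members lay mostly inside the genes and seldom near their starts. A promoter class was given to 9 of 136 positions, 6.62%, against 12.8% of 15869 positions over all genes. These shares were not matched for gene length. The long genes Cdh13, Cdh23, Pcdh15 and Pcdha4-g held 81 of the 136, and only Pcdh15 among them had a promoter position. By table the members' share was 11.1% against 13.5% in susceptible against control, 6.0% against 12.7% in resilient against control, and 2.44% against 12.2% in resilient against susceptible. Of 109 positions in the 18 members of at least 100 kb, 34.9% lay in the first of 3 equal parts of the gene body, 33.9% in the middle and 31.2% in the last. Over 6678 positions in 1487 genes of that length the shares were 31.9%, 31.7% and 36.4%, so the members' positions were spread about evenly along their genes.

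A few long genes held most of the positions. Cdh13, Cdh23, Pcdh15 and Pcdha4-g together held 81 positions, 59.6% of the 136. Of the 33 members, 18 held 1 position, 3 held 2, and 11 held 3 or more. Pcdhgb5 held a shift only. Among 6605 genes with a position outside chromosome 1, Cdh13 ranked 10 and Cdh23 ranked 11 by number of positions, Pcdh15 ranked 47 and Pcdha4-g ranked 100, while the median was 1 both for members and for all genes.

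**Figure D2:**
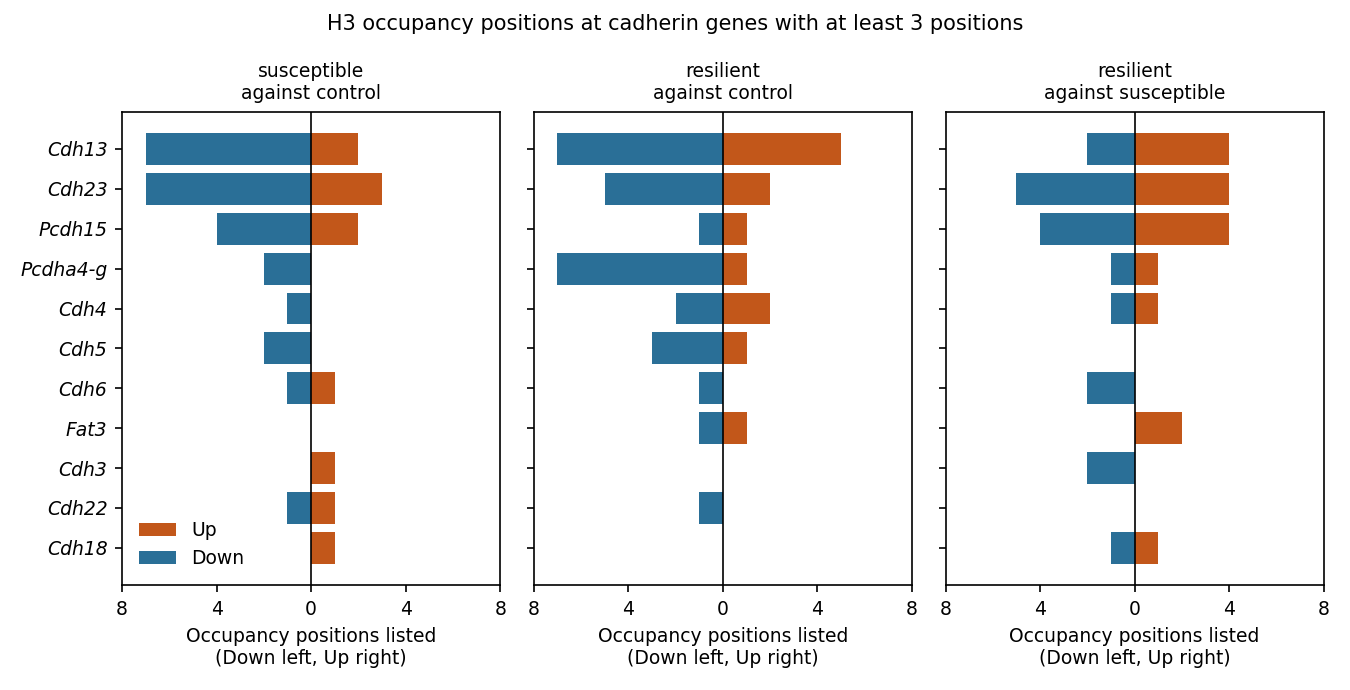
Number of occupancy positions (horizontal axis) at the 11 cadherin superfamily genes outside chromosome 1 with at least 3 positions, in each of the 3 comparisons, split into Up and Down. Cdh13 with 27 and Cdh23 with 26 positions lead. Genes with fewer than 3 positions, among them 18 with 1 position each, are not drawn.

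The counts were larger in longer genes. The 10 members of at least 300 kb held a median of 5.5 positions (1 to 27), against 5 (0 to 66) over all 404 genes of that length. Per 100 kb, the medians were 1.1 and 1.05. Cdh23 held 6.6 positions per 100 kb and ranked 2 of the 404, whereas Cdh13 with 2.6 ranked 64 and Pcdh15 with 1.97 ranked 101. At the other end, Pcdh9, a protocadherin of 875 kb, held 1 position, 0.114 per 100 kb, and ranked 402. Cdh8 with 0.259 per 100 kb ranked 371 and Cdh12 with 0.209 ranked 387.

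**Figure D3:**
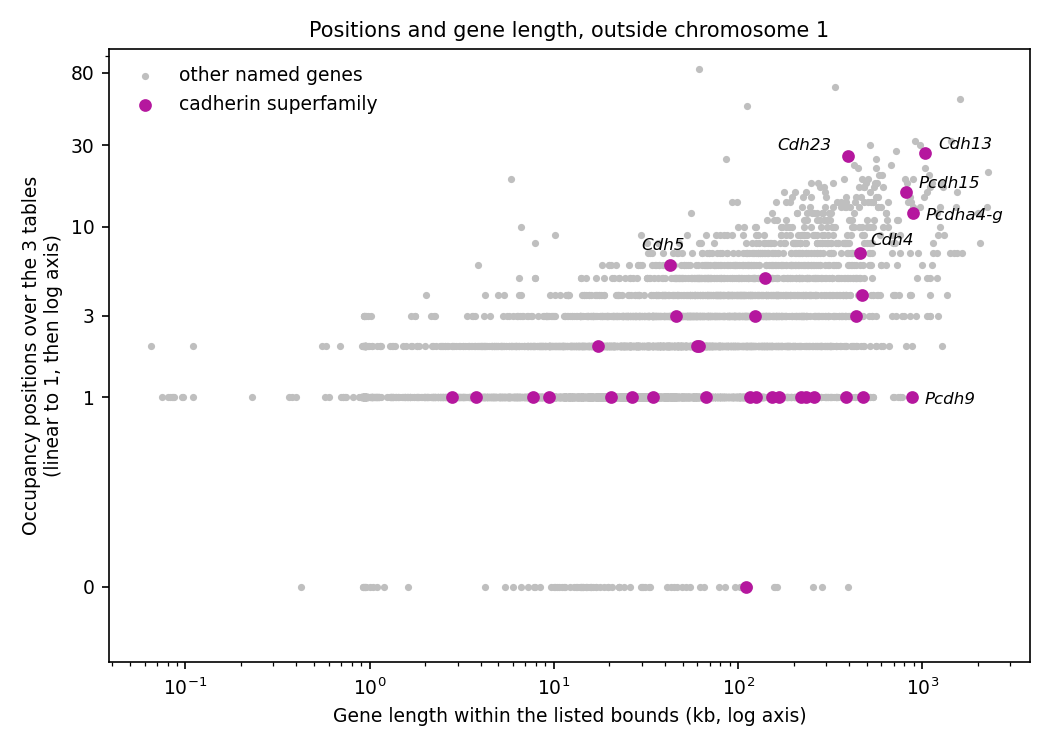
Occupancy positions summed over the 3 tables (vertical axis, linear to 1 and logarithmic above) against gene length within the listed bounds (kb, log axis), for cadherin superfamily genes and all other named genes outside chromosome 1. Cdh23, with 26 positions, lies near the upper edge of genes of its length, and Pcdh9, with 1, near the lower edge.

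Among the type I classical cadherins, which form the adhesive core of adherens junctions, 4 of the 5 RefSeq genes were named, with 4 Up and 8 Down positions in all. Cdh4, the retinal cadherin (chromosome 2, 179177183 to 179634080, plus strand), held 7 of them. Its position 279 kb from the start was Down in susceptible against control. Against control, the resilient group had Up positions at 22 and 245 kb and Down positions at 23.8 and 138 kb, and in resilient against susceptible a Down position at 164 kb and an Up position at 175 kb. Cdh4 thus had both directions in each table that compared the resilient group, and its closest pair of opposite sign lay within 2 kb. Cdh3, the placental cadherin (chromosome 8, 109034752 to 109080811, plus strand), had an Up position at 16.4 kb in susceptible against control and Down positions at 20.5 and 23.4 kb in resilient against susceptible. Cdh1 and Cdh2, the epithelial and neuronal cadherins, held 1 Down position each, Cdh1 in resilient against susceptible and Cdh2 in resilient against control.

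The type II classical cadherins, which bind with finer specificity and mark groups of neurons and the vessel wall, had 8 of 10 genes named and 6 Up and 15 Down positions. Of their 8 positions in resilient against control, 7 were Down, in a table where 36.7% of positions over all genes were Up. Cdh5, the cadherin of endothelial junctions (chromosome 8, 106625525 to 106668402, plus strand), held 6 positions for a length of 42.9 kb, or 14.0 per 100 kb. No rate for genes of similar length is given here, since those above cover genes of at least 300 kb. The Cdh5 positions at 15.8 and 16.5 kb were Down in susceptible against control. Those at 12.1, 30 and 43.1 kb were Down in resilient against control, and 1 at 0.398 kb, in the promoter class within 1 kb of the start, was Up. The position at 43.1 kb lay 260 bp past the end of the gene. Cdh5 had 5 of 6 positions Down in the tables against control, and none in resilient against susceptible. Over all genes, 37.6% of positions were Up in susceptible against control and 36.7% in resilient against control.

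Cdh6, another type II cadherin (chromosome 15, 12963955 to 13103394, minus strand), had 1 Up position at 116 kb and 1 Down position at 64.8 kb in susceptible against control. The position at 64.8 kb was Down in resilient against control too, and the position at 116 kb was Down in resilient against susceptible. Both of these coordinates were identical between tables, and a further Down position lay at 65.6 kb in resilient against susceptible. Cdh22 (chromosome 2, 164937007 to 165060237, minus strand) had an Up position at 59.8 kb beside its promoter position in susceptible against control. A Down position 875 bp past its end was listed in resilient against control. Cdh18 (chromosome 15, 22966218 to 23404173, plus strand), a cadherin of the central nervous system, had an Up position at 394 kb in susceptible against control, and in resilient against susceptible an Up position at 264 kb and a Down position at 402 kb. Cdh8, Cdh11, Cdh12 and Cdh24 held 1 position each, Up for Cdh11 and Down for the other 3. Cdh9 and Cdh10, the remaining genes of the class in RefSeq outside chromosome 1, were not named.

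Cdh13 encodes T-cadherin, which lacks a cell-internal part, is held to the membrane by a lipid anchor, and binds the hormone adiponectin. It had the most positions of any member, 27 over 1040 kb (chromosome 8, 120807655 to 121847348, plus strand), 11 Up and 16 Down. In susceptible against control, 7 positions were Down, at 60.1, 80, 263, 286, 727, 729 and 1024 kb from the start, and 2 were Up, at 73.7 and 232 kb. In resilient against control, 7 were Down, at 263, 438, 533, 560, 729, 776 and 1024 kb, and 5 were Up, at 18, 323, 328, 677 and 726 kb. Both comparisons with control had more Down than Up at Cdh13. So had all genes, with 37.6% of positions Up in susceptible against control and 36.7% in resilient against control. In resilient against susceptible, 4 were Up, at 200, 328, 395 and 953 kb, and 2 were Down, at 151 and 724 kb.

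Some Cdh13 coordinates recurred. The positions at 121070832 and 121831352 were Down against control in both defeated groups, and the position at 121135972 was Up in the resilient group against each of the others. Between 724 and 729 kb, 5 positions from the 3 tables fell between 121531212 and 121537152. There the resilient against control position at 121533882 was Up, and 470 bp further the susceptible against control position at 121534352 was Down. The next pair, at 121536542 and 121537152, lay 610 bp apart and was Down in both of those tables.

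Cdh23 and Pcdh15 encode the partner proteins of the tip link, the filament that opens the transduction channels of inner ear hair cells. Both genes lie on chromosome 10. Cdh23 (59765498 to 60159238, minus strand, 394 kb) had 26 positions, 9 Up and 17 Down. Of the 10 in susceptible against control, 3 were Up, at 11.5, 61.7 and 323 kb from the start, and 7 were Down, at 37.2, 137, 184, 212, 226, 276 and 309 kb. The 6 positions from 137 to 309 kb in that table were all Down, a stretch chosen after its values were seen. Over all genes, 37.6% of positions in that table were Up. In resilient against control, 2 were Up, at 109 and 243 kb, and 5 were Down, at 105, 129, 212, 226 and 262 kb. In resilient against susceptible, 4 were Up, at 35.7, 41.5, 72.5 and 243 kb, and 5 were Down, at 64.8, 91.6, 115, 151 and 178 kb.

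Pooled over the 3 tables, the Cdh23 positions formed a dense stretch. Within single tables the largest gaps were wider. At Cdh23 they were 75.6 kb in susceptible against control, 83.7 kb in resilient against control and 64.4 kb in resilient against susceptible. At Cdh13 they were 440, 248 and 329 kb in the same order. The next values are pooled, with those of Cdh23 first. The 23 distinct coordinates of Cdh23 spanned 311 kb, with a median gap of 13.7 kb and a largest gap of 32.9 kb. The 24 coordinates of Cdh13 spanned 1010 kb, with a median gap of 36.2 kb and a largest of 177 kb. Coordinates 59933092 and 59946752 were Down against control in both defeated groups. Coordinate 59916662 was Up in the resilient group against the control and against the susceptible group.

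Pcdh15 (73284615 to 74097510, plus strand, 813 kb, the bounds of its listed transcripts joined) had 16 positions, 7 Up and 9 Down. In susceptible against control, 4 were Down, at 1.10, 89.5, 125 and 394 kb, and 2 were Up, at 85.9 and 458 kb. The resilient against control table listed only 573 kb (Down) and 609 kb (Up). In resilient against susceptible, 4 were Up, at 11.5, 487, 609 and 800 kb, and 4 were Down, at 17.6, 41.8, 504 and 556 kb. The position at 609 kb, coordinate 73893292, was Up in the resilient group against each of the others. All but 2 of the Pcdh15 positions thus came from the tables that include the susceptible group.

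**Figure D4:**
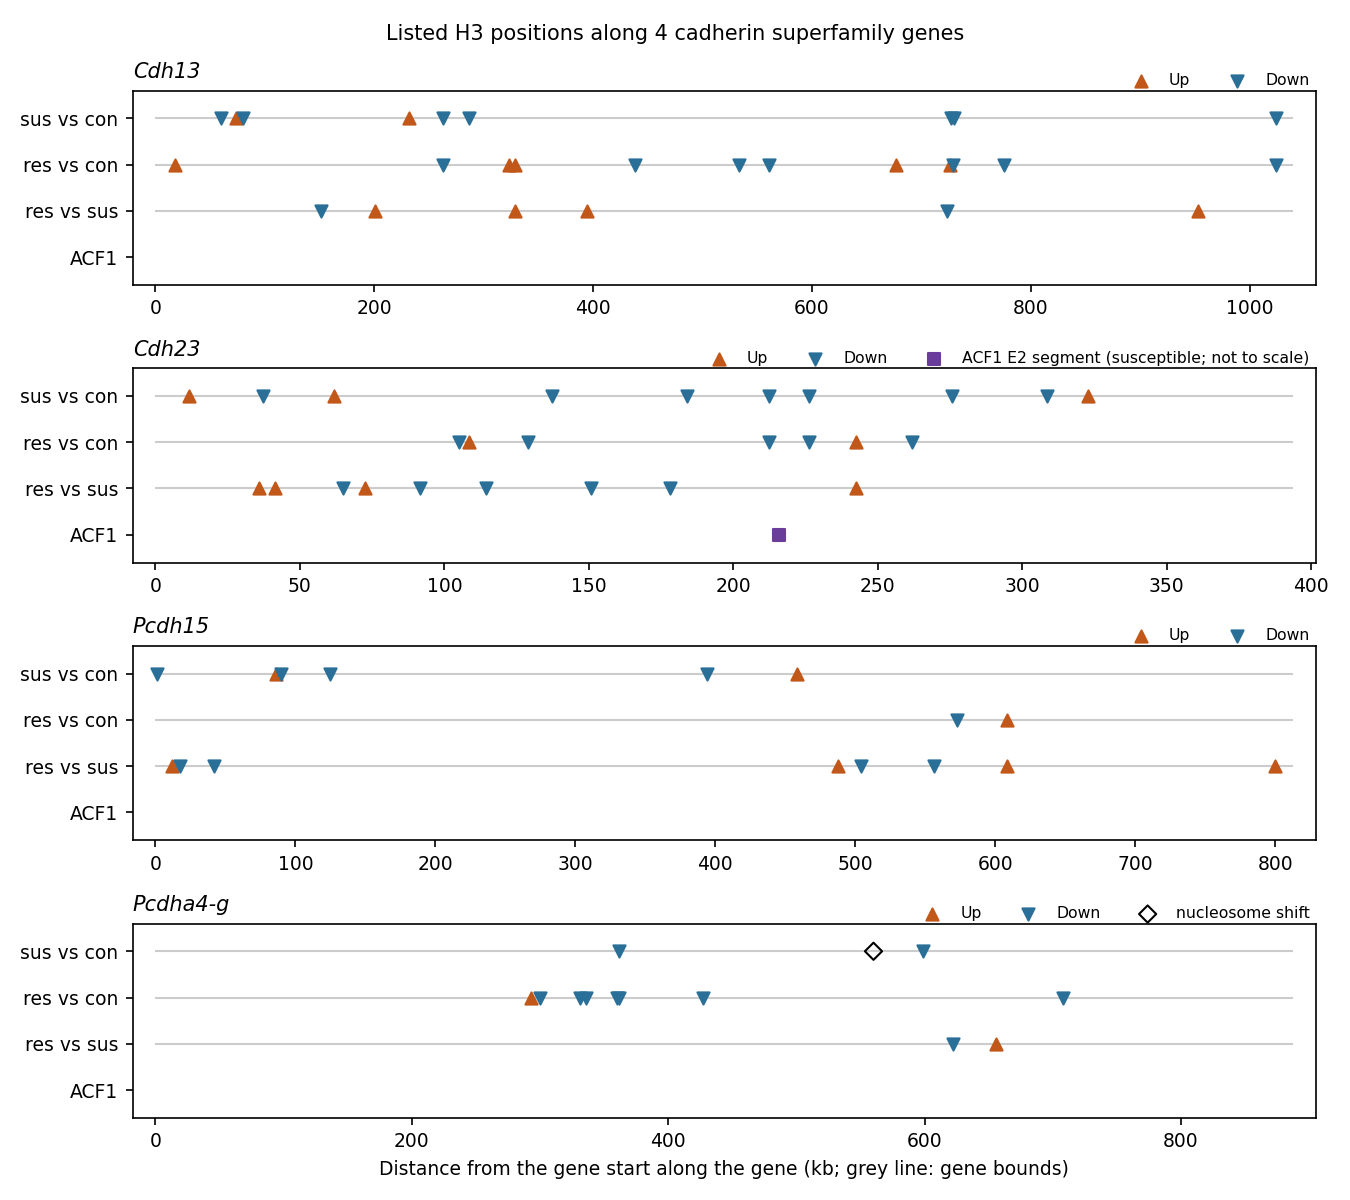
Occupancy positions along Cdh13, Cdh23, Pcdh15 and Pcdha4-g by distance from the gene start (kb), with 1 row per comparison, upward triangles for Up and downward triangles for Down. A square marks the ACF1 segment of the susceptible list in Cdh23, and an open diamond the nucleosome shift in Pcdha4-g.

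The clustered protocadherins lie side by side on chromosome 18, where alternative first exons join shared last exons within the alpha and gamma groups. The tables named 8 of these genes, with 20 rows from 37095592 to 37895172. Their gene bounds overlap: the transcript named Pcdha4-g (37112395 to 37999854, plus strand, 887 kb) overlaps the bounds of the other 7, so a position given to one gene can lie within the bounds of another. Pcdha4-g had 12 positions. Of the 8 in resilient against control, 1 was Up, at 293 kb, and 7 were Down, at 300, 332, 336, 360, 361, 427 and 708 kb. In susceptible against control, 2 were Down, at 361 and 599 kb, and in resilient against susceptible 1 was Down, at 622 kb, and 1 Up, at 656 kb.

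All 12 positions of Pcdha4-g lay between the end of the alpha genes' bounds at 37347311 and the first listed gamma gene start at 37833989. That stretch holds the listed beta genes Pcdhb3 and Pcdhb15. Bounds of the beta and gamma genes that were not named are not given here. The 7 Down positions of resilient against control were consecutive among its positions in that table, from 37412102 to 37820012 over 408 kb, a run chosen after its values were seen. One of its coordinates, 37473652, was Down in susceptible against control as well. Among the beta genes, Pcdhb3 had an Up position 1.18 kb from its start in susceptible against control, and Pcdhb15 a Down position 0.0825 kb from its start in resilient against control. Among the gamma genes, Pcdhga8 had an Up position 0.0225 kb from its start and Pcdhga3 an Up position, both in resilient against susceptible. The alpha genes Pcdha1 and Pcdha4 held 1 Down position each, Pcdha1 in resilient against susceptible and Pcdha4 in susceptible against control. In all, the cluster had 5 Up and 13 Down positions, 8 of the Down in resilient against control.

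Both nucleosome shifts at the 33 genes counted here fell in this cluster, and both were toward negative values. Pcdha4-g had a shift of -70 bp at 37672512 in susceptible against control, where 2.15% of all genes named outside chromosome 1 held a shift. Pcdhgb5, a gamma protocadherin, had a shift of -80 bp at 37895172 in resilient against susceptible, where 1.7% did. No member held a shift in resilient against control, where 1.93% of all genes did. The sign follows the authors' table, which does not say whether it runs along the chromosome or the gene.

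The non-clustered protocadherins, which lie outside the cluster and have their own promoters, had 3 of 12 RefSeq genes named. Besides Pcdh15, Pcdh12, a protocadherin of endothelial cells (chromosome 18, 38426746 to 38444055, minus strand), had an Up position at -0.967 kb from its start and a Down position at 9.33 kb, both in resilient against control. Pcdh9 held its 1 Up position in susceptible against control. Long genes of this class such as Pcdh7 with 417 kb and Pcdh11x with 620 kb, by their RefSeq length, were not named.

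Among the Fat and Dachsous genes, which bind each other across cell borders, 4 of 6 were named, with 4 Up and 4 Down positions. Fat3, the member best known from neurons (chromosome 9, 15714637 to 16182675, minus strand), held 4. It had, in resilient against control, an Up position at 435 kb and a Down position at 267 kb, and in resilient against susceptible Up positions at 301 and 435 kb. The position at 435 kb, coordinate 15748042, was Up in both. Fat2, Fat4 and Dchs1 held 1 or 2 positions each, and the 3 of them in resilient against control were Down. Of the Flamingo genes, seven-pass cadherins that guide axons, Celsr3 held 1 Down position in susceptible against control, and Celsr1 and Celsr2 were not named.

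The remaining cadherins with a promoter position were Cdhr1 (chromosome 14) and Cdhr5 (chromosome 7), each with no other position. Cdh17, a liver and intestine cadherin without the classical cell-internal part (chromosome 4), held 2 Up positions in susceptible against control. These 3 genes had no position in the tables that include the resilient group. In total, 32 of the 104 superfamily genes that RefSeq lists outside chromosome 1 were named, and Pcdha4-g, whose symbol RefSeq does not use, made the 33. By class the share was lowest in the clustered protocadherins, with 7 of 58 genes. The share named among all RefSeq genes is not given here, so these counts have no background. In that cluster, 12 positions between the alpha genes' bounds and the first listed gamma gene were assigned to Pcdha4-g, which is not among the 58.

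The 136 positions fell on 125 coordinates, and 11 coordinates were listed in 2 tables each. Of these 11, 6 were Down against control in both defeated groups, at Cdh13, Cdh23, Cdh6 and Pcdha4-g. A further 4 were Up in the resilient group against both others, at Cdh13, Cdh23, Fat3 and Pcdh15. At the last, in Cdh6, the susceptible group was higher than control and the resilient group lower than the susceptible. Each such pair of tables shares a group, so the signs are not independent of each other. How often coordinates recur over all genes is not given here, so these counts have no background.

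ACF1 segments, the minority state E2 of the authors' 2-state maps, fell in 1 member. The files do not say which state stands for ACF1 binding. In the susceptible list, 1 of 1133 segments overlapped Cdh23, at 59943001 to 59943800 on chromosome 10, a width of 800 bp against a median of 1000 bp in that list. No segment of the control list (749) or of the resilient list (716) overlapped a member. Of the 6691 genes named outside chromosome 1, 2.5% held a segment in the susceptible, 1.81% in the control and 1.4% in the resilient list. Thus 1 or none among 33 genes is near the share over named genes. Genes that were not named were not counted. The nearest H3 position was 2.95 kb from the segment, at 59946752, and was Down against control in both defeated groups. The next, at 59933092, was 9.91 kb away and also Down in both. The nearest other segment in each of the 3 lists lay 2240 kb away.

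The proteins that work with cadherins were examined from a list of 34 genes, of which 16 were named outside chromosome 1. Among catenins and related adaptors, which tie classical cadherins to actin, 7 of 10 were named. They held, in susceptible against control, 1 Up and 15 Down positions, in resilient against control 0 Up and 3 Down, and in resilient against susceptible 2 Up and 8 Down. Ctnna3, an alpha-catenin, held 10 of the 15 Down positions in susceptible against control, 2 Down in resilient against control, and 1 Up and 3 Down in resilient against susceptible. Ctnna2, the neuronal alpha-catenin, held 2 Down positions in the first of these tables, 1 Down in the second and 1 Up in the third. These counts stand beside the shares over all genes given above, and no difference from them was tested.

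The other lists were sparse. Planar polarity partners of the Celsr genes had 3 of 10 genes named (Prickle1, Vangl1 and Fzd6), with 1 Up and 2 Down positions in each comparison with control and none in resilient against susceptible. Of other genes with cadherin repeats, 4 of 7 were named, and the calsyntenin Clstn2, a synaptic protein, held 1 Up and 1 Down position in each comparison with control and 2 Up and 3 Down in resilient against susceptible. Dsg2, another of these genes with cadherin repeats, held no occupancy position but a shift of 80 bp in susceptible against control. No gene of these lists held an ACF1 segment.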

How the data were processed

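Of the 15 samples, 6 had H3 or ACF1 files that were used; SNF2H and input samples were not analysed here. The submitters' processing notes name CASAVA 1.8.2 and the genome build mm9. Which aligner, segmentation program and H3 caller were run is not given in the sources used here. Per the labels, reads were 100 bp, after 15 PCR cycles for H3 and 19 for ACF1. The authors deposited 3 occupancy tables (Up or Down), 3 shift tables (bp) and 3 maps of the genome in 200 bp steps into states named E1 and E2, none with a count, score or p-value.

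Rows were counted per gene as the authors assigned them, outside chromosome 1. Positions are 1-based starts; distances run from the gene start to the position's middle. A segment counted with at least 1 bp inside the gene bounds. No test was run, since each group had 1 result. Members, family lists and partner lists were chosen with earlier results of these data known. Values are given for members with at least 3 positions, a shift, a segment or a promoter position; the others are given by name and count, and other genes only from the partner lists. The values of 1 partner list are not reported here. Alternatives included chromosome 1, counted only positions inside gene bounds, merged positions within 200 bp, left out Cdh13, asked for 200 bp of overlap, or widened bounds by 10 kb; leaving out Cdh23 or the clustered protocadherins was chosen after seeing the data. Counting was tested on simulated data. An mm9 annotation was not used here, so exons and introns are not given. Scripts ran in Python 3.11.15 with pandas 2.3.3, numpy 2.4.6 and scipy 1.17.1, and figures were drawn with matplotlib 3.10.9.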

Additional observations from a re-analysis of the deposited data

Results flagged for a closer look

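Cadherin genes on chromosome 1, which the counts above leave out, held positions in large numbers in susceptible against control. Cdh20 held 45 occupancy positions there, 1 Up and 44 Down, and 3 shifts. Cdh7 held 21 and Cdh19 held 10, all Down, with 1 shift each. These 3 are type II classical cadherins. In resilient against control, Cdh20 had 2 Down positions and 1 shift and the other two had none, and in resilient against susceptible none of the 3 had a position. Over the whole of chromosome 1, susceptible against control listed 32791 positions, 98.2% of them Down, against 1406 positions with 62.3% Down in resilient against control and 1310 with 50.2% Down in resilient against susceptible. The direction at these 3 genes is thus that of the chromosome, and no account of it was tested.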

How the results depend on the processing

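With chromosome 1 included, susceptible against control went from 45 to 121 positions and from 37.8% to 14.9% Up, and the shifts from 2 to 8; Cdh20, Cdh7 and Cdh19 are the genes added. Resilient against control then gave 52 positions and 26.9% Up. The other 38 of 41 recomputed values stayed within the limits set for a change, which for counts was a factor of 1.5. Some of them could not change. The closest positions within a member lay 470 bp apart, so merging within 200 bp had nothing to merge. In resilient against susceptible, chromosome 1 had no cadherin position to add. With chromosome 1 left out, susceptible against control gave 35 to 45 positions and 37.8% to 41.7% Up, resilient against control 38 to 50 and 23.7% to 31.7%, and resilient against susceptible 32 to 41 and 45.7% to 50%; the segment count was 1. No paired analysis was possible because each pair of groups had 1 deposited result and no test was run. Depth is unknown, so a gene missing from a table is not shown to be unchanged.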
